A study of Homo sapiens with 2 samples.

Results

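The genes described here are 10 components of the beta-catenin destruction complex and of the feedback that Wnt signalling exerts on itself: APC, AXIN1, AXIN2, GSK3A, GSK3B, CSNK1A1, CTNNB1, RNF43, ZNRF3 and LEF1. They were chosen by name for their known roles and matched by symbol to the Ensembl identifiers of the deposited tables, where all 10 were found among 28303 genes. RNA came from HGC27, a line of human gastric cancer cells long kept in culture. One culture was transfected with the plasmid pcDNA3.1-control and the other with pcDNA3.1-linc01133, which carries the long non-coding RNA LINC01133, and cells were collected 48 h later. Each condition is a single library of transiently transfected cells, so no value has a replicate check and every difference is one between 2 libraries.

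In resting cells the destruction complex holds beta-catenin low. APC and the AXIN proteins are its scaffolds, casein kinase 1 alpha (CSNK1A1) and then the GSK3 kinases phosphorylate beta-catenin (CTNNB1), and the marked protein is ubiquitinated and degraded. When a Wnt ligand engages Frizzled and LRP receptors the complex is inhibited, and beta-catenin enters the nucleus with TCF and LEF factors. AXIN2, RNF43, ZNRF3 and LEF1 are themselves well known targets of this pathway. AXIN2 rebuilds the complex, and RNF43 and ZNRF3 remove Frizzled receptors from the cell surface. APC is a tumour suppressor of the gut, and earlier work in gastric cancer cells linked LINC01133 to APC through miR-106a-3p.

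The libraries held 15666629 counted fragments (control) and 16302581 (overexpression, called the LINC01133 library below). LINC01133 stood at 0.0809 FPKM (fragments per kilobase of exon, scaled to the depth of the library) in the control and at 1.44 in the library labelled as overexpressing it, so the labels and the transfected gene run the same way. HGC27 is labelled a gastric cancer line, but the epithelial and gastric markers were at or near 0. Of 4 epithelial markers with values 0 had a mean FPKM of 1 or more, with summed levels of 0.361 and 0.498, and KRT18 was listed at 0 in both libraries. The same held for 3 gastric lineage markers, with sums of 0.0227 and 0.0364 and with TFF2 and MUC5AC at 0. Of 5 mesenchymal markers 4 passed that level, and the sums over the 5 were 426 and 396, led by COL1A1 and VIM. The marker that did not pass, CDH2, was near 0 like the epithelial ones, at 0.0516 and 0.0744 FPKM from 4 and 6 fragments. The 2 blood and endothelial markers with values summed to 0.0858 and 0.0896. In bulk RNA of this kind, a smaller number of cells of a type and less RNA per cell cannot be told apart.

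All 10 genes were expressed in both libraries. The number of fragments behind a level ran from 136 for RNF43 to 1343 for CSNK1A1 in the LINC01133 library, and that of CTNNB1 was at least 1231. As deposited, APC differed most, at 3.09 times its control level, and GSK3B, CSNK1A1 and CTNNB1 were also higher in the LINC01133 library. AXIN1 and GSK3A were lower, at 0.770 and 0.759 times the control level. These values moved when base composition and transcript length were taken into account. With the trends on both subtracted, the log2 ratio of APC went from 1.11 to 0.25, under 2-fold, and that of GSK3B from 0.67 to 0.06. These log2 ratios are of FPKM + 1, which shrinks the ratio of a gene at a low level, such as APC. The 3.09 above is a ratio of FPKM with nothing added. Among the 10, CSNK1A1 was lowest with the trends subtracted, at -0.50 and percentile 3.76 of all genes. LEF1 (0.37) and AXIN2 (0.35) were highest, at percentiles 81.0 and 79.9. CTNNB1 turned below 0 (-0.22, percentile 12.3) and AXIN1 above 0, where the median of all genes was 0.10. The feedback genes AXIN2, LEF1, ZNRF3 and RNF43 lay between 0.961 and 1.14 times their control levels as deposited. Intervals given below are exact at 95% and cover counting error only. A level compared between genes also depends on the exon length it is divided by, which these intervals do not cover. The files give no molecular identifiers, so amplified copies of a molecule cannot be told apart.

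**Figure D1:**
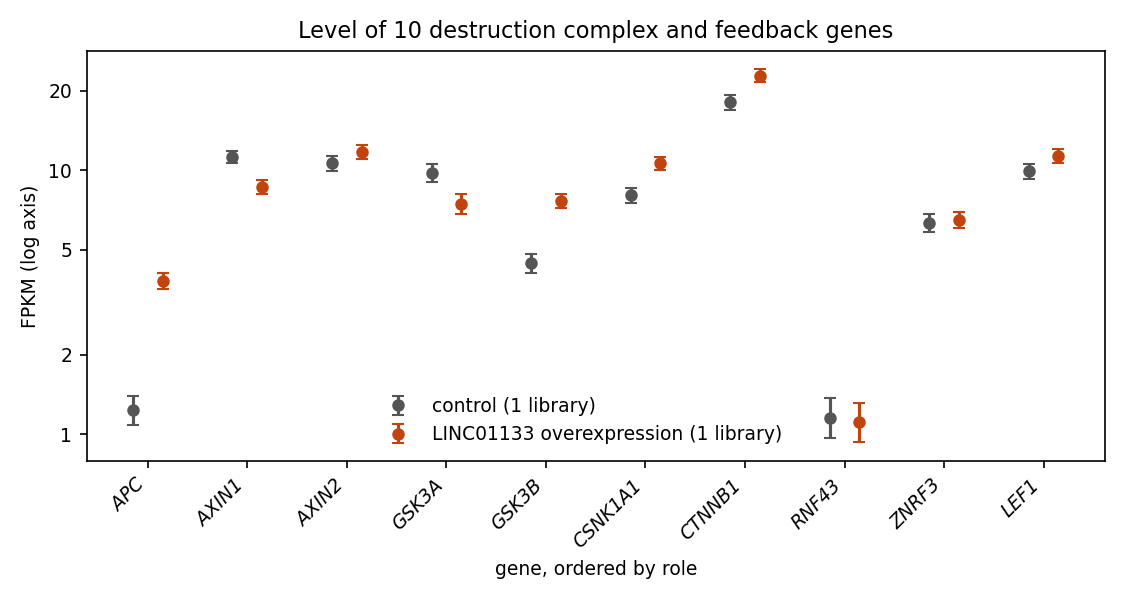
FPKM of the 10 genes on a log axis, in the control library (grey) and the LINC01133 overexpression library (orange), with 95% counting intervals as bars. The 2 intervals stand apart for APC, AXIN1, GSK3A, GSK3B, CSNK1A1, CTNNB1 and, narrowly, LEF1, and overlap for AXIN2, RNF43 and ZNRF3.

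Of the scaffolds, APC (ENSG00000134982, chr5:112707498-112846239 on GRCh38, plus strand) binds beta-catenin and AXIN. Its FPKM was 1.24 in the control (1.09 to 1.40, 241 fragments) and 3.82 in the LINC01133 library (3.55 to 4.10, 774 fragments). The ratio was 3.09 (2.67 to 3.58) and the intervals did not meet. APC was nonetheless the second least abundant of the 10 genes in both libraries. AXIN1 (ENSG00000103126, chr16:287440-352673, minus strand), the constitutive scaffold on which APC, the kinases and beta-catenin assemble, had 11.3 (10.7 to 11.9) and 8.68 (8.16 to 9.21). Its ratio was 0.770 (0.710 to 0.836). AXIN2 (ENSG00000168646, chr17:65528563-65561647, minus strand), the Wnt-induced paralogue, had 10.7 (9.96 to 11.4) and 11.8 (11.1 to 12.5), a ratio of 1.11 (1.01 to 1.21) whose interval barely left out 1.

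As deposited, the levels of the scaffolds stood in different ratios in the 2 libraries. Ratios between genes within a library depend on the exon lengths used, which pool all annotated exons: 7487 bases for AXIN1 and 5226 for AXIN2. Their longest coding transcripts have 3643 and 4259 bases, so which of the pair had more transcripts is not settled. The difference of such a ratio between libraries does not depend on length. AXIN1 stood at 1.06 times the level of AXIN2 per kilobase in the control (0.970 to 1.15) and at 0.737 times in the LINC01133 library (0.675 to 0.804). The level of APC was 0.110 times that of AXIN1 in the control (0.0953 to 0.126) and 0.440 times in the LINC01133 library (0.400 to 0.483), a 4.01-fold difference between libraries (3.39 to 4.75). On the scale of FPKM + 1, the log2 ratios were 1.11 for APC, -0.34 for AXIN1 and 0.13 for AXIN2 as deposited. With trends on base composition and length subtracted they lay closer, at 0.25, 0.14 and 0.35.

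The kinases did not move as a group. GSK3A (ENSG00000105723, chr19:42230186-42242625, minus strand) had FPKM values of 9.81 (9.06 to 10.6) in the control and 7.45 in the LINC01133 library (6.81 to 8.13), a ratio of 0.759 (0.674 to 0.855). GSK3B (ENSG00000082701, chr3:119821323-120094417, minus strand), its paralogue, had 4.44 (4.08 to 4.83) and 7.68 (7.22 to 8.18), a ratio of 1.73 (1.56 to 1.92). Both kinases phosphorylate beta-catenin once CSNK1A1 has primed it. GSK3A stood at 2.21 times GSK3B in the control (1.97 to 2.48) and at 0.969 times in the LINC01133 library (0.869 to 1.08). That ratio fell to 0.439 of its control value (0.374 to 0.515), so the excess of GSK3A seen in the control was not seen in the other library. With the trends subtracted the log2 ratios of GSK3A and GSK3B lay closer, at -0.17 and 0.06. CSNK1A1 (ENSG00000113712, chr5:149492197-149551552, minus strand), the priming kinase, had 8.04 (7.55 to 8.56) and 10.6 (10.1 to 11.2), a ratio of 1.32 (1.22 to 1.44).

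A stretch of coding sequence shows how unlike the messages of the GSK3 kinases are in base composition where they are otherwise most alike. It is the in-frame window of 99 bases with the most matches at the codon positions that mostly set the amino acid, from the transcripts of GENCODE 29 (GRCh38), with capitals marking the 17 bases that differ, 15 of them at the last position of a codon. It lies within chr19:42234402-42234588 for GSK3A and within chr3:119912753-119916084 for GSK3B, both on the minus strand, with introns removed.

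GSK3A: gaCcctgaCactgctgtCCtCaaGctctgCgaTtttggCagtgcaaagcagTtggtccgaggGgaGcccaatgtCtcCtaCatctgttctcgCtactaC

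GSK3B: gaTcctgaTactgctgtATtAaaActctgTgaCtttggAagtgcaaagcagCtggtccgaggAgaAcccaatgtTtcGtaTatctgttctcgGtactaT

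Of the 17 differing bases 15 are G or C in GSK3A and 4 in GSK3B, and the GC content of the window is 54.5% and 43.4%. Over the coding sequence of the transcripts used (1206 bases for GSK3A and 1263 for GSK3B), the last position is G or C in 69.7% and 42.5% of codons. Other transcripts of these genes were not examined. Base composition matters for reading these values, because the difference between the libraries ran with it across all genes (below).

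CTNNB1 (ENSG00000168036, chr3:41194741-41260096, plus strand), which encodes the substrate beta-catenin, was the most abundant of the 10 in both libraries. Its FPKM was 18.1 in the control (17.0 to 19.3) against 22.8 in the LINC01133 library (21.6 to 24.1), a ratio of 1.26 (1.16 to 1.37). Its fragments could be settled only as at least 940 and 1231, so these intervals are the widest the values allow. RNA levels say nothing of the amount of beta-catenin protein, which the complex sets by degradation. The level of APC was 0.0682 times that of CTNNB1 in the control (0.0589 to 0.0786) and 0.167 times in the LINC01133 library (0.153 to 0.183). The log2 ratios of APC and CTNNB1 were 1.11 and 0.32 as deposited, and 0.25 and -0.22 with the trends subtracted.

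The feedback genes were close to their control levels as deposited. RNF43 (ENSG00000108375, chr17:58352500-58417595, minus strand), a membrane ubiquitin ligase for Frizzled receptors, had 1.16 (0.970 to 1.37) and 1.11 (0.933 to 1.31), from 136 fragments in each library. Its ratio was 0.961 (0.752 to 1.23), and a difference within that interval was not detectable at this depth. ZNRF3 (ENSG00000183579, chr22:28883592-29057487, plus strand), the related ligase, had 6.33 (5.87 to 6.82) and 6.49 (6.03 to 6.97), a ratio of 1.02 (0.923 to 1.14). RNF43 stood at 0.183 times ZNRF3 in the control (0.151 to 0.220) and at 0.171 times in the other library (0.142 to 0.206), intervals that overlap. LEF1 (ENSG00000138795, chr4:108047545-108168956, minus strand), a DNA-binding partner of beta-catenin, had 9.92 (9.26 to 10.6) and 11.3 (10.6 to 12.1), a ratio of 1.14 (1.04 to 1.25), and the intervals of the levels just missed each other.

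By level per kilobase of the exon length used, the control order was CTNNB1, AXIN1, AXIN2, LEF1, GSK3A, CSNK1A1, ZNRF3, GSK3B, APC and RNF43. Counting intervals overlapped between neighbours from AXIN1 to GSK3A and between APC and RNF43. In the LINC01133 library the order was CTNNB1, AXIN2, LEF1, CSNK1A1, AXIN1, GSK3B, GSK3A, ZNRF3, APC and RNF43. There the intervals overlapped between neighbours from AXIN2 to CSNK1A1 and from AXIN1 to ZNRF3, and APC stood clear of RNF43.

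On the scale used for counts of genes, the log2 ratio of FPKM + 1 with 2-fold as the threshold, 1 of the 10 genes was higher in the LINC01133 library (APC, log2 ratio 1.11) and 0 were lower. Over the 11945 genes whose FPKM averaged 1 or more, 11.9% were at least 2-fold higher and 0.444% at least 2-fold lower, so 1 of 10 is close to the background. GSK3B came next with a log2 ratio of 0.67, followed by CSNK1A1 (0.36) and CTNNB1 (0.32). LEF1 was at 0.18, AXIN2 at 0.13, ZNRF3 at 0.03 and RNF43 at -0.03. AXIN1 was at -0.34 and GSK3A at -0.36. A log2 ratio above 0 was found for 7 of the 10, against 55.4% of all genes, and the median was 0.15 against 0.10. APC lay at percentile 90.6 of all genes by log2 ratio, GSK3B at 76.9, AXIN1 at 20.5 and GSK3A at 19.3, and the other 6 between 42.8 and 63.2.

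The log2 ratios of the 10 genes followed the GC content of their transcripts, as those of all genes did. Across genes, which share the same 2 libraries and are not independent, the Spearman correlation between log2 ratio and GC content was -0.733 over the 10 and -0.801 over 11913 genes. The 4 AT-rich members, CSNK1A1 (39.4% GC), APC (39.6%), GSK3B (42.1%) and CTNNB1 (42.6%), had the 4 highest log2 ratios. AXIN1, the most GC-rich at 63.2%, had the second lowest. Between them lay RNF43 (50.7%), GSK3A (52.0%), LEF1 (52.1%), AXIN2 (53.1%) and ZNRF3 (53.5%).

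**Figure D2:**
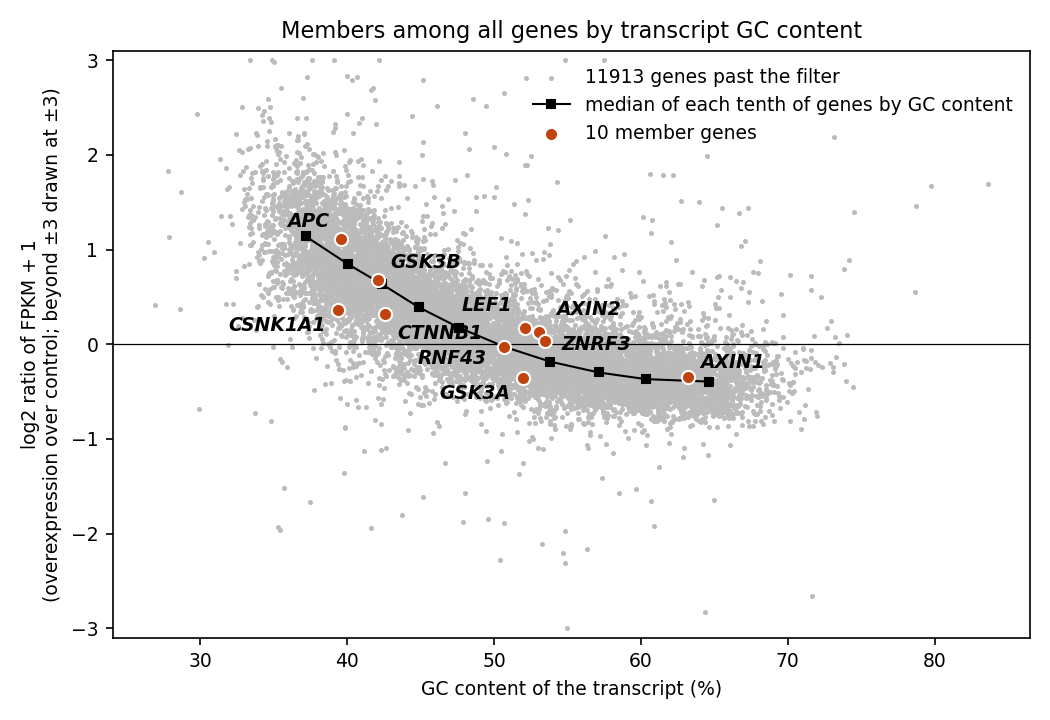
Log2 ratio of FPKM + 1 (overexpression over control) against transcript GC content for 11913 genes (grey points), with the median of each decile of genes by GC content (black squares) and the 10 genes described here (orange). APC and the median of its decile are at 1.11 and 0.85, CSNK1A1 lies under that median at 0.36, and AXIN1 lies beside the median of the most GC-rich decile.

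With all genes put into 10 equal groups by GC content (deciles), APC and CSNK1A1 fall in the same decile, with 38.7% to 41.3% GC, but at different places in it. In that decile the median log2 ratio was 0.85, the quartiles were 0.59 and 1.11, and 34.3% of its 1191 members passed 2-fold upward. APC, at 1.11, sat at the upper quartile, and CSNK1A1, at 0.36, below the lower one. GSK3B and CTNNB1 share the next decile, with a median of 0.63 and quartiles of 0.37 and 0.84, which GSK3B (0.67) was near the middle of and CTNNB1 (0.32) under. RNF43, GSK3A and LEF1 fall in the decile from 49.0% to 52.3%, with a median of -0.03 and quartiles of -0.21 and 0.18. There GSK3A (-0.36) was under the lower quartile, RNF43 (-0.03) at the median and LEF1 (0.18) at the upper quartile. The place of GSK3A rests on its longest coding transcript, with 1714 bases of 5′ untranslated region beside 1206 coding bases. Its coding sequence alone has 55.9% GC and its 3′ untranslated region 58.3%. The decile from 55.5% to 58.7% had a median of -0.30 and quartiles of -0.45 and -0.13, and -0.36 lies between those quartiles. The deciles are cut by whole transcripts, so this is not a like comparison, and it was made for GSK3A alone. The coding GC content of RNF43 (60.5%), AXIN2 (58.5%) and ZNRF3 (65.7%) also exceeds that of their transcripts, while that of AXIN1 (62.1%) and LEF1 (50.8%) is lower. AXIN2 (0.13) and ZNRF3 (0.03) were above the upper quartile of 0.00 in the decile from 52.3% to 55.5%, and AXIN1 (-0.34) was near the median of -0.39 in the decile from 62.3% upward.

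With the trends on GC content and transcript length subtracted, no member passed 2-fold (0 higher and 0 lower), against 1.72% and 0.764% of 11913 genes (205 and 91). The log2 ratio of APC went from 1.11 to 0.25 and its percentile from 90.6 to 70.3. GSK3B went from 0.67 to 0.06, at percentile 44.9. Among the 10, LEF1 (0.37, percentile 81.0), AXIN2 (0.35, percentile 79.9) and APC were then highest, with ZNRF3 at 0.23 (68.2). CSNK1A1 turned to -0.50, at percentile 3.76, and CTNNB1 to -0.22, at percentile 12.3. GSK3A stayed below 0 at -0.17 (16.0). AXIN1 turned to 0.14 (55.7) and RNF43 to 0.04 (41.0). Every one of these values depends on the transcript used for GC content and length. Those used for GSK3A, RNF43 and CTNNB1 have long 5′ untranslated regions, of 1714, 1956 and 1843 bases. Again 7 of the 10 were above 0, against 64.3% of genes, with a median of 0.10 equal to that of all genes. The part that base composition and length had in any single difference was not tested.

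**Figure D3:**
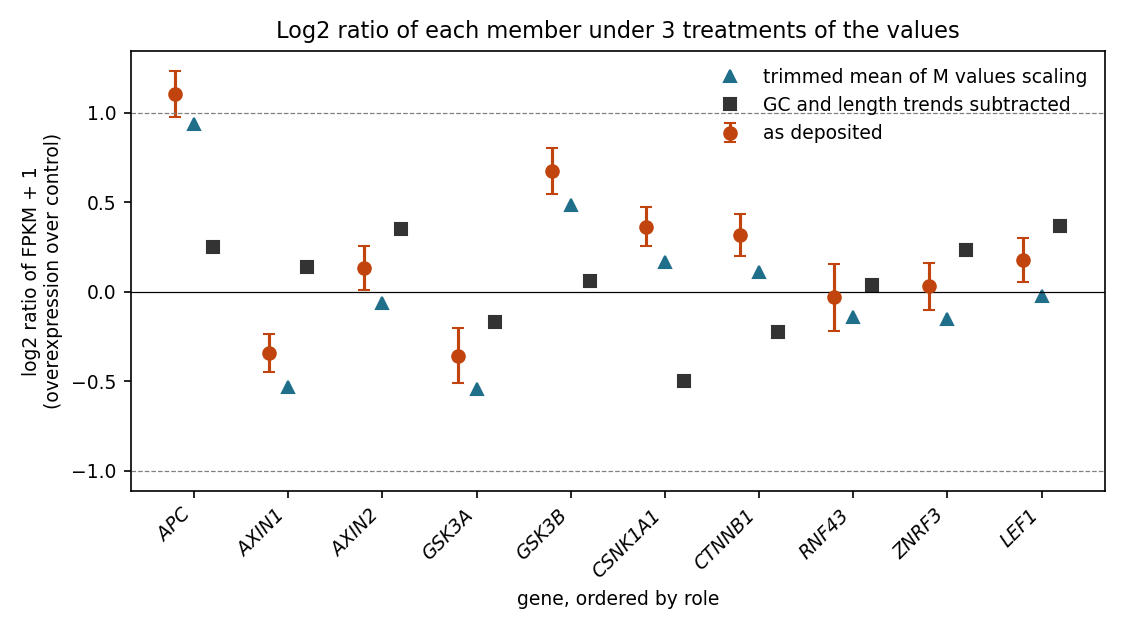
Log2 ratio of FPKM + 1 for each of the 10 genes as deposited (orange, with 95% counting intervals), rescaled by a trimmed mean of M values (blue) and with the trends on GC content and length subtracted (black). Of the 3 values of APC the deposited one passes the dashed 2-fold line, and CSNK1A1 goes from 0.36 to 0.17 and -0.50.

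Scaling also bears on the small differences. A scaling factor from the trimmed mean of M values, or from the median of ratios, shifts every log2 ratio of FPKM down by 0.21. On the scale of FPKM + 1, APC was then at 0.94 and 0.95, under 2-fold. Adding 1 shrinks the ratio of a gene at a low level. Without scaling, APC was at 1.11 with 1 added and at 1.55 with 0.1 added. AXIN2, ZNRF3 and LEF1, slightly above 0 as deposited, turned to between -0.15 and -0.01 under these scalings. APC, GSK3B, CSNK1A1 and CTNNB1 stayed above 0 under both scalings, and AXIN1, GSK3A and RNF43 below 0.

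Some of these messages share exon bases with other annotated genes, and the sources used here do not give how the counting shared out such fragments. RNF43 shares 57.6% of its exon bases with ENSG00000285897 on the same strand and 20.3% with TSPOAP1-AS1 on the opposite strand, neither with a value here, and 1.91% with SUPT4H1 (FPKM 11.2 and 9.50). CSNK1A1 shares 37.4% with ENSG00000230551, which had an FPKM of 0.281 and 1.07. AXIN2 shares 25.2% with ENSG00000266076, listed at 0 in both libraries, and GSK3A 11.6% with ENSG00000268643. LEF1 overlaps the antisense gene LEF1-AS1 by 5.20%, whose FPKM was 0.0931 and 0.115, and APC overlaps ENSG00000258864 by 1.85%. The values of RNF43, CSNK1A1 and AXIN2 are the most uncertain on this account. AXIN1, GSK3B, CTNNB1 and ZNRF3 shared no exon base with another gene of the annotation.

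Around the members, genes of the wider Wnt pathway were taken from 8 lists, of which 107 genes passed the filter. In all, 10 of these 107 genes were at least 2-fold higher, a share under the 11.9% of all genes, and 0 were lower, against 0.444%. Their median log2 ratio was -0.03 against 0.10 for all genes. After subtraction of the trends 1 of 107 was at least 2-fold higher, against 1.72% of all genes, and the median was 0.14 against 0.10. By list, the counts of 2 of 14 receptors, 5 of 33 cytoplasmic partners and 2 of 10 cytoskeletal partners of APC are near the 11.9% seen over all genes as deposited.

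**Figure D4:**
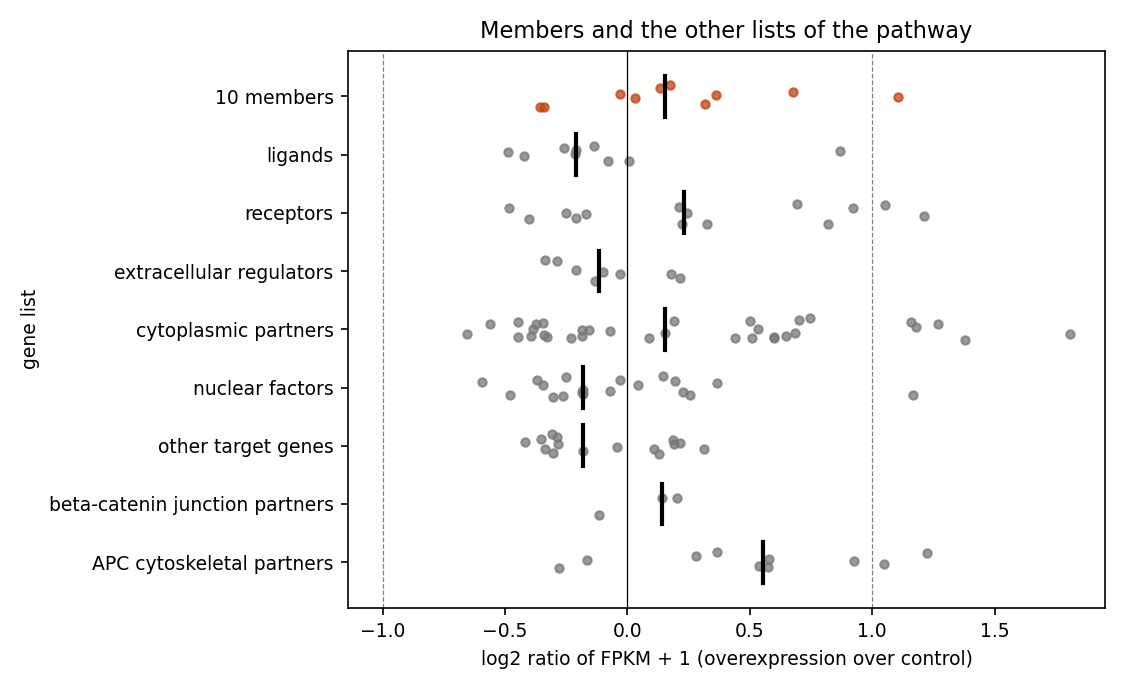
Log2 ratio of FPKM + 1 for the 10 genes described here (orange) and the genes past the filter in 8 lists of the Wnt pathway (grey), with a black bar at each median and dashed lines at 2-fold. No gene passes the lower line, and medians run from -0.21 for ligands to 0.56 for the cytoskeletal partners of APC.

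Ligands and their secretion factors had a median of -0.21, with 0 of 9 genes past 2-fold. WNT5A, a ligand best known outside the beta-catenin branch, had FPKM values of 3.76 and 7.70 (log2 ratio 0.87). WNT3A, a classical activator of beta-catenin, had 1.83 and 1.11 (-0.42), and the acyltransferase PORCN, which lipid-modifies Wnt proteins, had 2.71 and 1.65 (-0.49). The carrier WLS, with 32.4 and 26.9 (-0.26), and WNT11, with 23.3 and 21.1 (-0.14), were the most abundant. Extracellular regulators had a median of -0.12, with 0 of 8 past 2-fold. The Wnt deacylase NOTUM, itself a feedback target, had 19.4 and 15.2 (-0.34), the R-spondin RSPO4 had 1.60 and 1.13 (-0.29), SFRP4 had 19.7 and 17.9 (-0.13), and the LRP antagonist DKK1 had 6.25 and 7.42 (0.22). With the trends subtracted the medians of ligands and of extracellular regulators turned to 0.21 and 0.19, against 0.10 for all genes.

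Receptors had a median of 0.23 over 14 genes, with 2 at least 2-fold higher, and the median was -0.23 among those averaging 5 FPKM or more. LGR4, the R-spondin receptor that restrains RNF43 and ZNRF3, had 6.49 FPKM in the control against 16.4 in the LINC01133 library, a ratio of 2.52 (2.30 to 2.76). The co-receptor LRP6 had 2.56 and 6.38, a ratio of 2.50 (2.23 to 2.80). FZD3 had 0.935 and 2.67 (log2 ratio 0.92), while the more abundant FZD2 had 24.9 and 18.6 (-0.40) and ROR2 had 21.7 and 18.1 (-0.25). With the trends subtracted LGR4 was at 0.62 and LRP6 at 0.26, while FZD3 turned to -0.35, FZD2 to 0.14 and ROR2 to 0.15.

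Cytoplasmic partners of the complex had a median of 0.15 over 33 genes, or -0.03 and -0.04 by the scalings above, with 5 at least 2-fold higher. CSNK1G3, a membrane-bound casein kinase 1 that acts on LRP6, had 2.30 and 10.6 (log2 ratio 1.81). Regulatory subunits of the phosphatase PP2A, which is found in the complex, were PPP2R5E with 2.81 and 8.93 (1.38) and PPP2R5A with 5.74 and 15.3 (1.27). The other 2, chosen for mention after their values were seen, were TNKS2 with 4.56 and 11.4 (1.16), a tankyrase that marks AXIN for degradation, and the deubiquitinase USP34 with 3.08 and 8.23 (1.18). PPP2R5A was the gene of the 8 lists that stayed at least 2-fold higher with the trends subtracted (1.13). Other PP2A subunits, also mentioned after their values were seen, went both ways. PPP2R1A had 58.3 and 36.6 (-0.66, or -0.43 with the trends subtracted), and PPP2R5D (-0.39) and PPP2R5B (-0.34) were lower as deposited. PPP2CA (0.75), PPP2R5C (0.68), PPP2R1B (0.60) and PPP2CB (0.15) were higher. The abundant NKD2, with 68.0 and 51.8 (-0.38), and CSNK1G2, with 63.0 and 45.9 (-0.45), were lower as deposited but at 0.16 and 0.06 with the trends subtracted. APC2, the paralogue of APC, had 5.76 and 4.75 (-0.23), with a GC content of 69.2%. Its direction was opposite to that of APC as deposited but not with the trends subtracted (0.19), and it was likewise chosen after its values were seen.

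The cytoskeletal partners of APC had a median of 0.56 over 10 genes, with 2 at least 2-fold higher, and their median GC content was 43.9%. KIF3A, a kinesin motor that transports APC, had 0.782 and 3.17 (log2 ratio 1.23) and the scaffold DLG1 had 2.31 and 5.84 (1.05). IQGAP1 had 9.88 and 19.7 (0.93), and MAPRE1, the microtubule end-binding protein EB1, had 58.0 and 75.1 (0.37). Once the trends were subtracted these were at 0.22, 0.14, 0.46 and 0.01. Of the genes that join beta-catenin to cell junctions 3 passed the filter, with 0 past 2-fold: CTNNA1 (47.3 and 43.6), VCL (33.4 and 36.9) and CTNND1 (23.5 and 27.3). E-cadherin, CDH1, was counted with 2 fragments in the control and 1 in the other library.

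Nuclear factors had a median of -0.18 over 19 genes, with 1 at least 2-fold higher. This was PYGO1, a co-activator that joins the beta-catenin complex through BCL9, with an FPKM of 0.691 and 2.80 (log2 ratio 1.17). It was at -0.13 with the trends subtracted. The co-repressor TLE2 had 26.3 and 17.0 (-0.60), TLE5 had 55.0 and 39.2 (-0.48), and PYGO2 had 28.5 and 23.6 (-0.26). They were at -0.09, -0.01 and 0.12 with the trends subtracted. Target genes other than the members had a median of -0.18 over 15 genes, with 0 past 2-fold in either direction. MYC had 190 and 153 (-0.31), CCND1 had 41.3 and 47.2 (0.19), EPHB3 had 9.87 and 7.13 (-0.42), and the log2 ratio of PPARD was -0.35. The medians of nuclear factors and of target genes were then 0.06 and 0.07, against 0.10 for all genes.

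Promoter sequence was examined because 4 members are known TCF and LEF targets. RefSeq windows of 300 bases around the transcript start (GRCh38.p14) were found for 8 of the 10 genes, 11 windows in all, but not for AXIN2 or ZNRF3. The motif CTTTGAT, on either strand, was in 0 of the 11 windows and in 2.62% of all 35116 windows. Its first 6 letters, CTTTGA, which include every match of the longer motif, were in 1 of the 11 and in 12.9% of all. That match lies just past the more downstream of the 2 starts of CSNK1A1, within chr5:149550334-149550357 on the minus strand, and is shown with the motif in capitals.

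CSNK1A1: tgaagaggcCTTTGAggctggttg

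A match is a description of the letters, and its absence says only that they are not in these windows.

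The 3′ untranslated regions were searched for the 7 bases complementary to the seed of miR-145-5p, a miRNA chosen after the data were seen. The mature sequence is that of RefSeq (chr5:149430661-149430683, plus strand) with the seed, bases 2 to 8, in capitals. LEF1 was the single member that held the site, AACTGGA, shown in capitals from the GENCODE 29 transcript (chr4:108048331-108048353, minus strand).

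miR-145-5p: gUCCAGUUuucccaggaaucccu

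LEF1: cctgtcatgcgcAACTGGAgcca

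The site was in 14.7% of 10302 protein-coding genes past the filter. Its 6-base form, ACTGGA, was in 37.0% of them and in 6 members (APC, CSNK1A1, GSK3B, LEF1, RNF43 and ZNRF3). Genes with the 7-base site had a median log2 ratio of 0.39 and those without it 0.01, but genes with it also had a lower median GC content (44.5% against 50.2%) and longer 3′ untranslated regions (2978 against 1140 bases). With the trends on GC content and length subtracted the medians were 0.08 and 0.09. LEF1 itself, with a ratio of 1.14, differed little between the libraries.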

How the data were processed

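Poly(A)-selected RNA was sequenced from 1 control and 1 LINC01133 overexpression library of HGC27 cells, per the labels' protocols. The deposited FPKM values were made by the authors from fragments counted per gene, divided by exon length and library depth, as the values themselves show. No header names the unit, but multiplied by merged exon length (GENCODE 29, GRCh38), 94.5% and 94.4% of genes with a length gave whole fragments within 0.02. These shares include genes at 0, which are whole at any length, and 21677 and 23588 genes were above 0. Bowtie2 2.2.3, HISAT2 2.1.0, HTSeq 0.6.0 and GRCh38 were named in the submitters' processing notes. The annotation release, the role of each tool and the strand setting are not given in the sources used here.

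The members, the gene lists and the rule for named genes (per list, the 3 largest absolute log2 ratios and the 2 most abundant genes) were chosen with earlier results of these data known. The steps gave the fragments behind 7 members directly. For GSK3B and CSNK1A1 an exon length within 10% of the annotation (8006 and 7745 bases) made both libraries whole, and for CTNNB1 the smallest such length gave a lower bound. Intervals are exact Poisson for levels and Clopper-Pearson for ratios, between libraries or between genes of a library. They are conditional where a ratio between genes is compared between libraries, all at 95%. Log2 ratios used FPKM + 1, with no count model, test or p-value, because each group held 1 library. A minimum mean FPKM of 1 was set. Lowess trends (span 0.3) on GC content, then length, of the longest coding transcript were subtracted, keeping the median. The calculation was tested on simulated data. A search for miR-145-5p sites was added after the data were seen. Python 3.11.15, pandas 2.3.3, SciPy 1.17.1 and statsmodels 0.14.6 were used. Symbols matched 22937 of 28303 identifiers.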

Additional observations from a re-analysis of the deposited data

How the results depend on the processing

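No paired analysis was possible because a condition had a single library. The planned search for miR-106a-3p sites was not run. The count of members at least 2-fold higher, 1 as reported, was 0 under both scalings (median of ratios, then trimmed mean of M values), with the trends on GC content and length subtracted and at a minimum mean FPKM of 5, which leaves APC out, and it was 2 at 1.5-fold. The count of members lower was 0 under every alternative run. The median log2 ratio of the members, 0.15, was -0.034 and -0.042 under those scalings. It was 0.21 as a mean. Of 40 single values of members under other settings, 12 stayed within their counting interval and 10 changed sign, none of them that of APC, GSK3A or GSK3B. Where a value moved, the cause was not tested.

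All genes at least 2-fold higher, 1421 as reported, numbered 941 and 921 by the scalings in the same order, 2244 with a pseudocount of 0.1, 205 with the trends subtracted, 656 at a minimum mean FPKM of 5 and 3199 at 1.5-fold. The 53 lower became 103, 107, 127, 91, 10 and 632 in that order, and 109 with no filter. The 10 genes of the 8 lists that were higher became 6 by each scaling and at a minimum mean FPKM of 5, 1 with the trends subtracted and 21 at 1.5-fold, where 2 were lower. Their median of -0.03 was -0.16 by each scaling and 0.14 with the trends subtracted. With the trends subtracted the median changed sign for ligands (0.21), extracellular regulators (0.19), nuclear factors (0.06), target genes (0.07) and junction partners (-0.003, from 0.14). The median of all genes was 0.10 there and as deposited, so those of nuclear factors and target genes were below it both times. By the scalings the median changed sign for cytoplasmic partners (-0.03 and -0.04) and junction partners (-0.06 and -0.07). At a minimum mean FPKM of 5 that of receptors was -0.23, and with no filter that of junction partners was -0.00. The 6-letter motif was in 1 member window, the 7-letter one in 0. Depth limits RNF43 most, with 136 fragments in each library.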
